A study of Mus musculus with 8 samples.

Results

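The genes described here are 39 DNA damage repair genes: Fanconi anemia genes, homologous recombination genes, end-joining genes, break sensors and checkpoint kinases. They were taken as a list of symbols, chosen with earlier results of these data known, and their transcripts were summed per gene. All 39 were found, and all 39 were among the 25543 genes that passed the filter on low counts. RNA was measured in LSK cells, the lineage-negative, Sca1-positive, Kit-positive fraction of mouse bone marrow that holds the blood stem cells and early progenitors, from 8 mice. Asxl2, a gene for a chromatin regulator of the Polycomb group, was knocked out (KO) or wild type (WT) in mice that were young (8 to 12 weeks) or old (over 1 year). Each of the 4 groups (young WT, young KO, old WT, old KO) held 2 mice, 1 from each of 2 batches. The mice came from 4 litters, and every litter supplied a KO and WT pair within a single age and batch. The strain and the form of the knockout allele are not given in the sources used here.

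The Fanconi pathway removes crosslinks between DNA strands: a core complex attaches ubiquitin to the paired proteins FANCD2 and FANCI, and recombination proteins then rebuild the broken strand. Breaks of both strands are sensed by the MRE11 complex and PARP1, signalled by the kinases ATM and ATR, and closed either by recombination from the sister chromatid or by end joining through the Ku proteins and ligase 4. Inherited loss of Fanconi genes leads to bone marrow failure, and several of these genes are expressed most in dividing cells.

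The libraries held 45737972 to 80388500 estimated counts each. Asxl2 lay at 4.63 to 5.63 TPM (a level scaled for transcript length and library size) in the KO mice and at 23.0 to 30.8 TPM in the WT mice, with no overlap, so the genotype labels matched the RNA in all 8 libraries. The sort markers Kit and Ly6a (Sca1) were present in every library but moved with the groups. Kit was at 547 TPM in the young WT mouse of batch 2 and at 63.4 to 219 TPM in the others, lower in old mice (log2 change -0.93, SE 0.24, adjusted p = 0.0324) and in KO (-0.88, SE 0.24, adjusted p = 0.0438). Ly6a was higher in KO (0.90, SE 0.22, adjusted p = 0.0321). Of 12 LSK and stem cell markers 5 were lower in old mice and 0 higher, and 4 were lower and 4 higher in KO. Summed erythroid markers lay at 2730 to 3210 TPM in young WT, 1860 to 2470 TPM in young KO, 1780 to 3090 TPM in old WT and 1400 to 1410 TPM in old KO mice, and summed mature neutrophil markers at 9.4 to 1590 TPM. Of the erythroid markers, 9 of 12 were lower in KO and 7 of 12 lower in old mice. Of 8 mast cell and basophil markers 6 were lower in KO (median log2 change -1.21), with sums of 306 to 392 TPM in young WT, 161 to 192 TPM in young KO, 259 to 493 TPM in old WT and 131 to 279 TPM in old KO mice. The part of these markers in the results below was not tested. One library stood apart, that of the young WT mouse of batch 2: the slope of log2 TPM on log2 transcript length was -0.26 there and -0.55 to -0.90 in the other libraries. Levels come from cell suspensions, in which fewer cells of a type and less RNA per cell cannot be told apart.

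Promoter sequences were examined because many of these genes are copied in dividing cells, where E2F factors act. RefSeq (GRCm38.p6) gave promoters, 250 bases before to 50 after the start, for 31 of the 39 genes. Of these, 5 of 31 genes (16.1%) held one of the E2F-type words TTTCCCGC, TTTCGCGC, TTTGCCGC or TTTGGCGC on either strand, against 2.6% of the 27025 genes with a promoter. CCAAT was found in 58.1% of the member genes and 41.1% of all genes, and TTTGAA in 3.23% and 20.2%. The stretches below hold the words that lie wholly upstream of the start, in capitals and read along the gene's strand, where GCGGGAAA is TTTCCCGC on the opposite strand. The stretches of Fancg (chr4:43010335-43010364, minus strand) and Xrcc6 (chr15:82016312-82016341, plus strand) are kept to 30 bases, since GENCODE places exons there. Those of Chek2 (chr5:110839791-110839878) and Brca2 (chr5:150522413-150522500) are on the plus strand and hold 88 bases each.
Fancg: tttcttttcagTTTCCCGCggaaccgtctc
Xrcc6: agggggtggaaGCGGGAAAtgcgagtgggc
Chek2: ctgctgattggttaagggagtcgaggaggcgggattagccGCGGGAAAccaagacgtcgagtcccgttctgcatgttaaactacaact
Brca2: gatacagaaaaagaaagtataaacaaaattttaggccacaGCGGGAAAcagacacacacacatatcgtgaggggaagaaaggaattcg
Among the genes that were lower in old mice, described below, 1 of 9 with a promoter held an E2F-type word, and 4 of 22 of the others did. A match of letters is a description of the sequence and not a site.

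All 39 genes were transcribed in every library, over a wide range of levels. Xrcc6, which encodes the Ku70 subunit that binds broken ends, was highest, with a mean of 178 TPM and 115 to 209 TPM across libraries. Parp1, a sensor of strand breaks, followed at a mean of 139 TPM (79.8 to 230 TPM), and Rif1, which protects broken ends from resection, at 103 TPM, between 75.5 and 126 TPM. The ranges of these 3 genes overlapped. Lig4, the ligase of end joining, was lowest at a mean of 0.961 TPM (0.617 to 1.26 TPM). Fancm, a DNA translocase, had a mean of 2.99 TPM (1.77 to 4.90 TPM) and Prkdc, the catalytic kinase of end joining, 3.27 TPM (1.92 to 5.07 TPM), with overlapping ranges. The end-joining genes thus held both the highest and the lowest level on the TPM scale.

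The library that was highest was the same for most members. The young WT mouse of batch 2 had the highest TPM for 25 of the 39 genes, and it held the highest value for 26.3% of all genes tested. The old KO mouse of batch 1 had the lowest TPM for 27 of the 39, and it held the lowest value for 28.5% of all genes. The median level of the members was 20.3 TPM in that old KO mouse and between 25.8 and 31.0 TPM in the other libraries.

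Old and young mice were compared over both genotypes, to ask how these genes differ with age. Of the 39 genes, 10 were lower in old mice and 0 were higher (edgeR's quasi-likelihood test, Benjamini-Hochberg adjusted over all genes). These were Fancb and Fancg of the core complex, Fanci, the recombination genes Xrcc2, Xrcc3 and Rad54l, the checkpoint kinase Chek1, the Ku80 gene Xrcc5, and the break sensors Parp1 and Mre11a. Each litter was of 1 age, so age differed only between litters, 2 of each age; litter cannot be a block in this comparison, and the test treats littermates as independent. Over all genes 13.9% were called in either direction and 9.61% were called lower, while 25.6% of the members were. Among the 9831 protein-coding genes above 5 TPM, a background chosen after the data were seen, 22.8% were called lower. The members' share was therefore close to that of other well expressed protein-coding genes. The fitted change was below 0 for 37 of the 39 members and for 43.9% of all genes. The median log2 change was -0.34 for the members, 0.15 for all genes and -0.28 for the protein-coding genes above 5 TPM. At an unadjusted p under 0.05, 20 members were lower, against 19.4% of all genes.

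**Figure D1:**
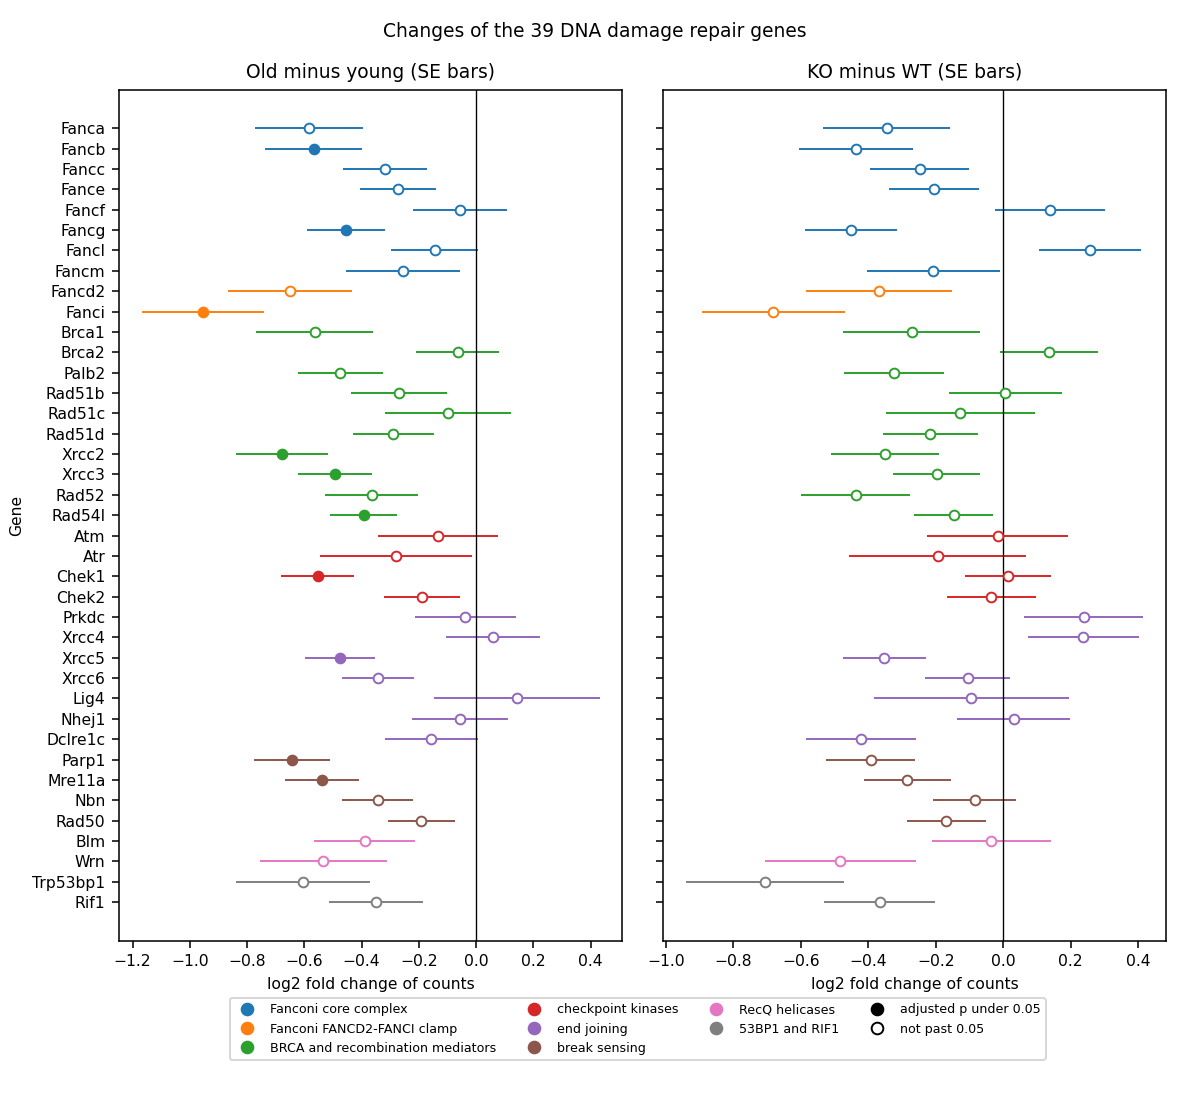
Log2 fold change of counts with its standard error for each of the 39 genes, old minus young on the left and KO minus WT on the right, coloured by role. Filled points passed an adjusted p of 0.05: 10 genes on the left, all below 0, and none on the right.

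In the Fanconi core complex 2 of 8 genes were lower in old mice. Fancg (chr4:43002343-43010506, minus strand, GRCm38) encodes a scaffold subunit. Its level was 50.02 and 72.9 TPM in the young WT mice of batches 1 and 2, 45.1 and 49.5 TPM in the young KO mice, 58.9 and 60.0 TPM in the old WT mice, and 23.8 and 36.9 TPM in the old KO mice. The old KO mice were the lowest, and the old WT mice lay within the range of the young mice. The log2 change of old against young was -0.45 (SE 0.14, adjusted p = 0.0483). Fancb (chrX:164980592-164997272, plus strand), a subunit of the ubiquitin-attaching module, was at 7.23 and 14 TPM in young WT, 6.13 and 9.42 TPM in young KO, 7.54 and 8.22 TPM in old WT, and 3.84 and 5.64 TPM in old KO. Again only the old KO mice lay below all young mice. Its log2 change was -0.57 (SE 0.17, adjusted p = 0.0475). The other 6 core genes had estimates between -0.58 for Fanca (adjusted p = 0.0586) and -0.06 for Fancf, and none passed the test.

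Fanci showed the largest fitted change of the 39 genes. FANCI and FANCD2 form the clamp that closes on damaged DNA. Fanci (chr7:79391929-79450264, plus strand) was at 12.7 and 30.05 TPM in young WT, 12.2 and 11.5 TPM in young KO, 13.8 and 9.57 TPM in old WT, and 6.47 and 9.68 TPM in old KO. The young WT mouse of batch 2 stood far above the rest, and the old WT mouse of batch 1 exceeded 3 of the 4 young mice. The log2 change was -0.95 (SE 0.21, adjusted p = 0.0258). Part of Fanci's exon sequence (16%) is shared with Polg on the opposite strand. Fancd2, the partner, had an estimate of -0.65 and did not pass (adjusted p = 0.0618).

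Of the 10 genes of the BRCA and recombination group 3 were lower in old mice. Xrcc2 (chr5:25689812-25705825, minus strand) and Xrcc3 (chr12:111803192-111813873, minus strand) encode proteins of homologous recombination. Xrcc2 was at 14.6 and 18.0 TPM in young WT, 13.3 and 14.7 TPM in young KO, 15.5 and 11.8 TPM in old WT, and 7.46 and 9.97 TPM in old KO. The old KO mice were lowest and 1 old WT mouse lay among the young mice. Its log2 change was -0.68 (SE 0.16, adjusted p = 0.0283). Xrcc3 was at 44.9 and 45.6 TPM in young WT, 44.7 and 35.7 TPM in young KO, 46.7 and 28.5 TPM in old WT, and 28.5 and 26.7 TPM in old KO. The old WT mouse of batch 1 was the highest of all. The log2 change of Xrcc3 was -0.49 (SE 0.13, adjusted p = 0.0349). Rad54l (chr4:116094264-116123690, minus strand), a motor that drives strand invasion, was at 50.7 and 71.0 TPM in young WT, 47.2 and 59.7 TPM in young KO, 52.0 and 46.7 TPM in old WT, and 32.6 and 50.1 TPM in old KO. The age groups overlapped. Its log2 change was -0.39 (SE 0.12, adjusted p = 0.0469), and 15.4% of its exon sequence is shared with Lrrc41 on the opposite strand. Brca1 had an estimate of -0.56 (adjusted p = 0.0758), Palb2 of -0.47 (adjusted p = 0.0526) and Brca2 of -0.06, and none of them passed.

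Chek1 was the only member whose TPM in all 4 old mice lay below all 4 young mice, a pattern that held for 1.41% of all genes. CHEK1 is the kinase that carries the ATR signal and halts the cell cycle. Chek1 (chr9:36708482-36727065, minus strand) was at 35.8 and 42.3 TPM in young WT, 37.3 and 39.8 TPM in young KO, 31.7 and 28.4 TPM in old WT, and 20.3 and 28.3 TPM in old KO. The log2 change was -0.55 (SE 0.13, adjusted p = 0.027). Atm, Atr and Chek2 had estimates between -0.28 and -0.13 and did not pass.

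Of the end-joining and break-sensing genes, 1 of 7 and 2 of 4 were lower in old mice. Xrcc5 (chr1:72307421-72394952, plus strand), which encodes Ku80, was at 57.6 and 65.0 TPM in young WT, 47.3 and 52.6 TPM in young KO, 53.2 and 50.8 TPM in old WT, and 29.4 and 34.7 TPM in old KO. The old KO mice were well below the rest, and the old WT mice lay among the young. Its log2 change was -0.48 (SE 0.12, adjusted p = 0.0347). Parp1 (chr1:180568924-180601254, plus strand) was at 161 and 230 TPM in young WT, 146 and 127 TPM in young KO, 154 and 115 TPM in old WT, and 79.8 and 101 TPM in old KO. Of the old mice, only the old WT mouse of batch 1 overlapped the young mice. Parp1 had the smallest adjusted p of the members (log2 change -0.64, SE 0.13, adjusted p = 0.0227). Mre11a (chr9:14784654-14837123, plus strand), the nuclease of the break-sensing complex, was at 31.6 and 46.9 TPM in young WT, 28.7 and 31.9 TPM in young KO, 34.0 and 28.1 TPM in old WT, and 19.7 and 30.02 TPM in old KO. The age groups overlapped. Its log2 change was -0.54 (SE 0.13, adjusted p = 0.0292). Lig4 and Xrcc4 were the 2 members with estimates above 0, at 0.14 and 0.06, and neither passed. None of the RecQ helicases Blm and Wrn, Trp53bp1 and Rif1 passed either, with estimates from -0.61 to -0.35.

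**Figure D2:**
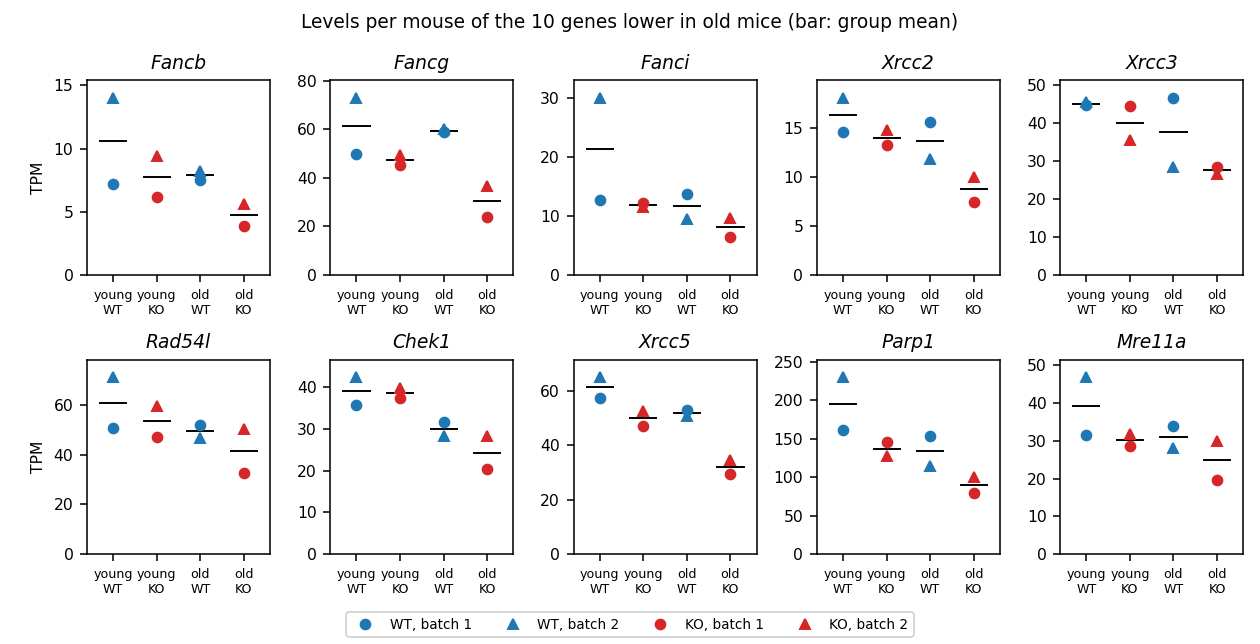
TPM in each mouse for the 10 genes lower in old mice, by group, with circles for batch 1, triangles for batch 2, blue for WT, red for KO and a bar at the group mean. Chek1 alone separates the 4 old from the 4 young mice, and in Fanci the young WT mouse of batch 2 sits at 30.05 TPM, above all others.

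The direction differed between mice. Between old and young WT mice of batch 1, 29 of the 39 members were higher in the old mouse and 10 were lower, with a median difference of 0.23 on the log2(TPM + 0.5) scale. Over all genes the direction of that pair was the same: 29.6% were lower in the old mouse and the median was 0.20. In the WT mice of batch 2, 35 of 39 were lower in the old mouse (median -0.39), against 46.9% of all genes. In the KO mice 30 of 39 (batch 1, median -0.49) and 31 of 39 (batch 2, median -0.22) were lower in the old mouse. The shares of all genes were 44.4% and 43.4%. These pairs were not counted among the protein-coding genes above 5 TPM, whose median change with age (-0.28) was near that of the members (-0.34). Within 1 genotype the test called 0 of the 39 members in WT mice and 0 in KO mice, with 0.0861% of all genes called in each. At an unadjusted p under 0.05 there were 6 members in WT and 12 in KO mice, all lower in old mice, against 7.46% and 13.4% of all genes lower. DESeq2 called 0 in WT and 10 lower in KO mice, when it called 0.732% and 8.87% of all genes lower. The interaction of genotype and age called 0 members (0.00391% of all genes, that is 1 gene), with 0 members at an unadjusted p under 0.05 and 0 by DESeq2.

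The 10 calls depended on single mice and on the processing. Without the young WT mouse of batch 2, the library that stood apart, 0 members were called (0.28% of all genes lower), and without the young WT mouse of batch 1 the count was 17 (12.6% of all genes lower). It was also 0 without the old KO mouse of batch 1 (10 of 26620 genes lower) or that of batch 2 (165 of 27649). Without the young KO mouse of batch 1 it was 0 (15 of 27730), and without that of batch 2 it was 2 (1485 of 28548). Without the old WT mouse of batch 1 it was 1 (163 of 27435). Batch 1 alone gave 0 calls (488 of 27044 genes lower) and batch 2 alone 6 (4.04% of all genes lower), of which 2 were among the 10. With batch left out of the model the count was 0 (101 of 25543 genes lower). As reported, 2454 of 25543 genes were lower, so calls over all genes also fell in the fits of this paragraph that called fewer members. DESeq2 called 15 lower, when it called 15.4% of all genes lower. limma on log2(TPM + 0.5) called 0, and 0.0274% of all genes lower.

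Changes also followed transcript length, and here the construction of the correction decided the count. The shortest 10% of the protein-coding genes above 5 TPM had a median log2 change with age of 0.21, and the longest 10% of -0.55. For KO against WT these medians were 0.42 and -0.45. A correction that removed the length trend of each library, centred so that the overall scale stayed with the TMM factors, called 14 members lower (13.2% of all genes), 8 of them among the 10. The same correction without centring called 0 members, and 0.172% of all genes lower. The uncentred form was built first; the centred form replaced it after counts over all genes had been seen and before values of the members were, because the uncentred trend is applied on top of the TMM factors and so counts each library's scale again. The 10 genes lower in old mice had a median effective length of 2568 bases and the other 29 of 2023 bases.

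**Figure D3:**
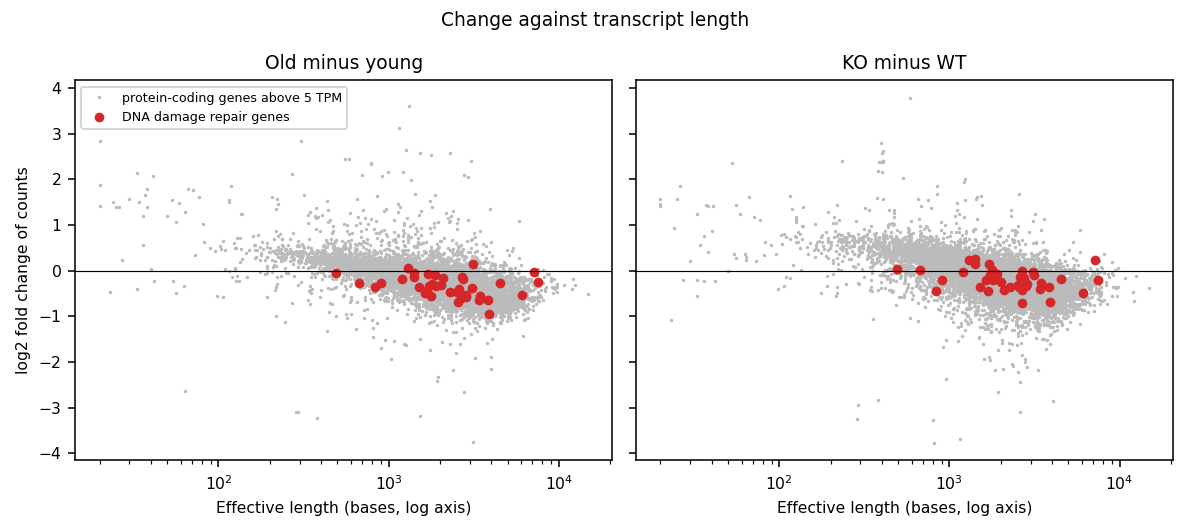
Log2 fold change against effective length (log axis) for protein-coding genes above 5 TPM in grey and the 39 members in red, old minus young on the left and KO minus WT on the right. Grey points fall with length in both panels, and the members lie within the grey cloud.

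**Figure D4:**
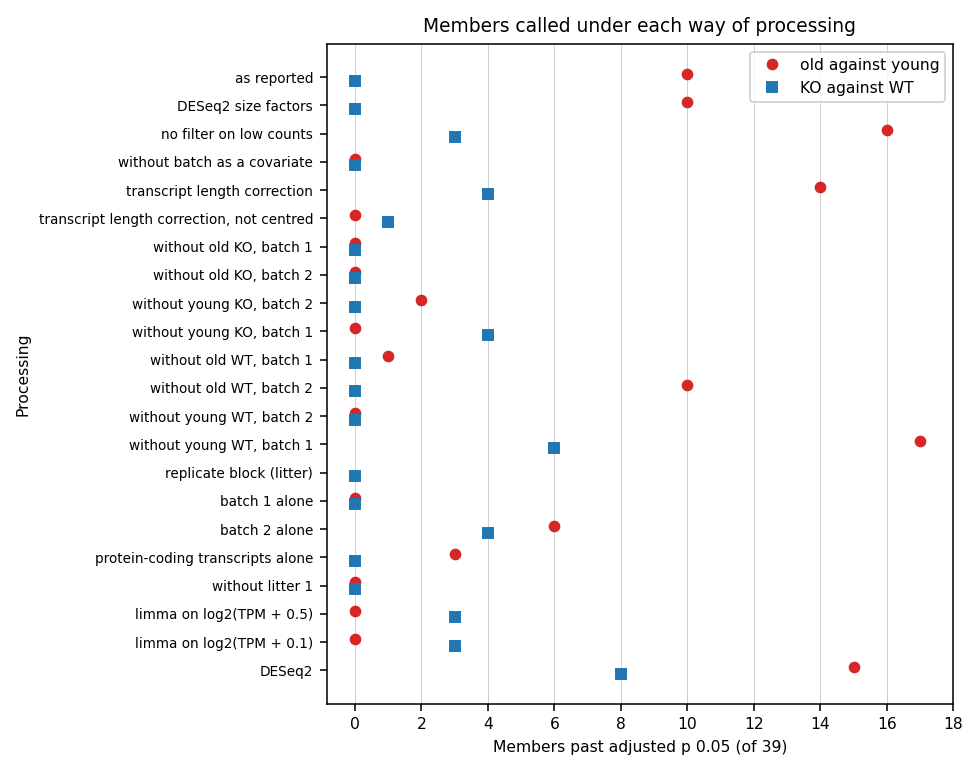
Number of the 39 members past an adjusted p of 0.05 under each way of processing, with circles for old against young and squares for KO against WT. The age count runs from 0 to 17 and the KO count from 0 to 8.

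KO and WT mice were compared over both ages, to ask how loss of Asxl2 relates to these genes. None of the 39 members passed the test (edgeR's quasi-likelihood test), while 9.98% of all genes were called and 14.6% of the protein-coding genes above 5 TPM were called lower. The fitted change was below 0 for 31 of the 39 members and for 44.7% of all genes. The median log2 change was -0.20 for the members, 0.10 for all genes and -0.19 for the protein-coding genes above 5 TPM. At an unadjusted p under 0.05, 11 members were lower and none higher, against 17% of all genes lower. DESeq2 called 8 members lower, when it called 13.2% of all genes lower. The median turned to 0.16 under the length correction without centring. It was -0.06 without the old WT mouse of batch 1, -0.09 without the old KO mouse of batch 1 and -0.09 with protein-coding transcripts alone.

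The members nearest to the threshold in this comparison were Fancg (log2 change -0.45, adjusted p = 0.0578), Fanci (-0.68, adjusted p = 0.0625), Trp53bp1 (-0.71, adjusted p = 0.0747) and Parp1 (-0.39, adjusted p = 0.0774). These 4 were chosen after their values were seen. Trp53bp1, whose protein 53BP1 steers breaks to end joining, was at 18.2 and 81.1 TPM in young WT, 22.6 and 29.1 TPM in young KO, 37.2 and 33.5 TPM in old WT, and 14.3 and 25.7 TPM in old KO. The young WT mouse of batch 2 was above every other mouse, and the genotypes overlapped. TPM in all 4 KO mice lay below all 4 WT mice for 3 members, Fancg, the recombination gene Rad52 and the end-trimming nuclease gene Dclre1c, a pattern that held for 8.08% of all genes. Within litters, KO was below WT for 33 and 23 of the 39 members in the 2 old litters of batches 1 and 2, against 64.9% and 43.8% of all genes. In the 2 young litters it was below WT for 25 and 34 members, against 59.1% and 46.9% of all genes. The litters were not counted among the protein-coding genes above 5 TPM, whose median change in KO (-0.19) was near that of the members (-0.20).

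Within 1 age, 0 members were called between KO and WT in old mice (0.65% of all genes) and 0 in young mice (0.0626%). At an unadjusted p under 0.05 there were 4 members in old mice, all lower in KO, and 0 in young mice, against 11.8% and 6.26% of all genes lower. DESeq2 called 4 lower in old and 0 in young mice, when it called 8.28% and 1.23% of all genes lower. The median log2 change of the members was -0.24 in old and -0.17 in young mice. The comparisons within age and within genotype share groups with one another.

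Much of the level of some members lay on transcripts that GENCODE does not annotate as protein coding. For 11 of the 39 genes under 50% of the TPM was on protein-coding transcripts, and for 16 it was 90% or more. For 9 genes the leading transcript was not protein coding: 4 were annotated as targets of nonsense-mediated decay, 3 as retained introns and 2 as processed transcripts. The following genes were chosen after their values were seen. In Rif1, 76.6% of the TPM was on a decay transcript of 307 bases, and the coding transcript of 8502 bases lay at 8.35 to 33.1 TPM. Rif1's place among the highest members thus rests on that short transcript. In Brca2, a recombination gene, 24.2% of the TPM was on coding transcripts. A retained-intron transcript of Brca2 of 688 bases was at 29.9 TPM in the old KO mouse of batch 1 and 12.4 TPM in that of batch 2, against 0.909 to 9.60 TPM in the other mice. In Chek1, a processed transcript of 2142 bases held 65.3% of the TPM and coding transcripts 26.9%.

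**Figure D5:**
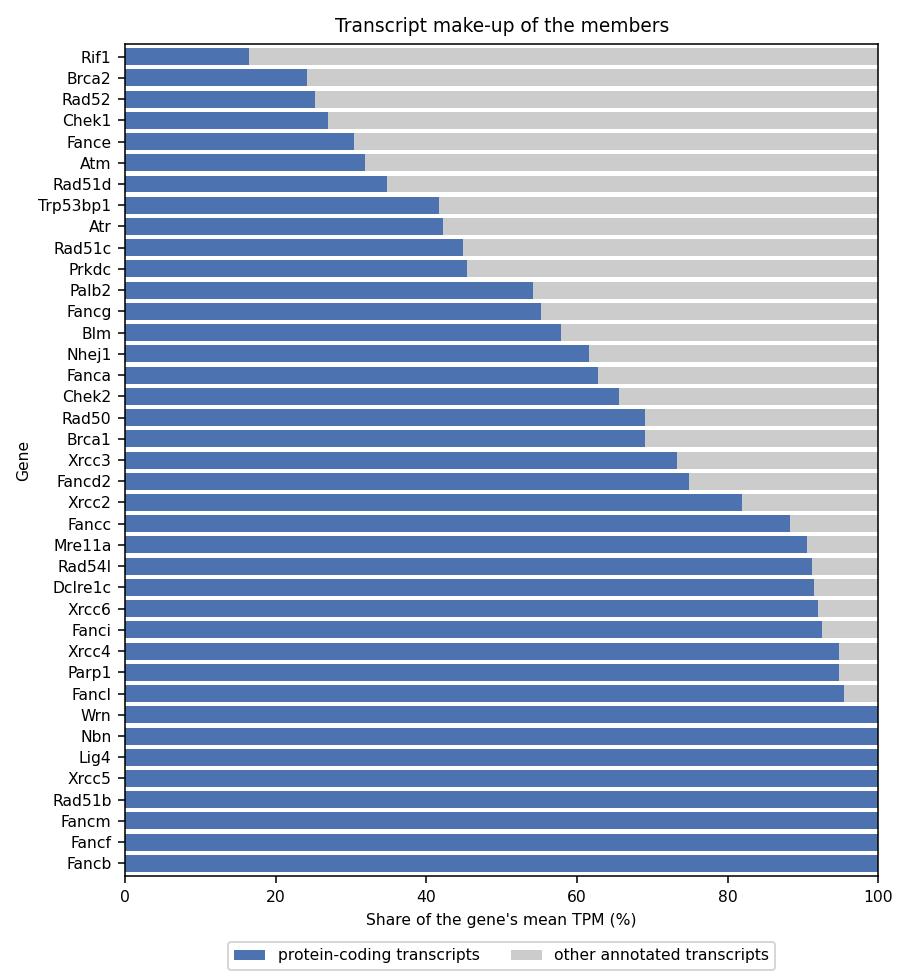
Share of each gene's mean TPM on protein-coding transcripts (blue) and on its other annotated transcripts (grey), sorted by share. Rif1 is lowest at 16.4%, and Wrn, Nbn, Lig4, Xrcc5, Rad51b, Fancm, Fancf and Fancb are at 100%.

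With counts of protein-coding transcripts alone, the median log2 change with age was -0.17 and 3 members were lower in old mice (5.58% of the genes tested): Fanci (log2 change -0.74, SE 0.20, adjusted p = 0.0399), Parp1 (-0.44, SE 0.12, adjusted p = 0.047) and Xrcc2 (-0.53, SE 0.15, adjusted p = 0.0478). For Chek1 the estimate was then -0.17 (SE 0.16, adjusted p = 0.45), and the TPM of its coding transcripts overlapped between old and young mice. The other 6 genes of the age call had estimates from -0.37 to -0.18 and did not pass. This fit was filtered and scaled anew over the 16964 genes tested. Estimates also rose for genes with all their TPM on coding transcripts. Fancb went from -0.57 to -0.37, Xrcc5 from -0.48 to -0.28 and Nbn from -0.34 to -0.14. What part of the shifts came from the transcripts left out, and what part from the scaling, was not tested.

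Other repair genes were read from lists drawn up for this work. Of 29 further Fanconi and recombination genes, 14 (48.3%) were lower in old mice and 0 higher, with a median log2 change of -0.41. Over all genes 9.61% were called lower, and of the protein-coding genes above 5 TPM 22.8%. Slx4, a scaffold for nucleases, had a log2 change of -1.01 (SE 0.24, adjusted p = 0.0297) and Dna2, an end-resecting nuclease, of -0.78 (SE 0.17, adjusted p = 0.0239). Of 31 other end-joining and break-response genes 5 were lower, among them Topbp1, an activator of ATR, at -0.79 (adjusted p = 0.0319). Topbp1 was at 109 TPM in the young WT mouse of batch 2. In the other young mice it was at 42.8 to 56.8 TPM, and in the old mice at 42.3 to 56.9 TPM. Of 7 mismatch repair genes 4 (57.1%) were lower, among them Msh6 at -0.85 (adjusted p = 0.0198). Of 18 base excision genes 5 were lower and of 18 nucleotide excision genes 3, with none higher in either list. These shares, 27.8% and 16.7%, and the 16.1% of the end-joining and break-response genes lie around the 22.8% of protein-coding genes above 5 TPM. Those of the further Fanconi and recombination genes (48.3%) and of the 7 mismatch repair genes (57.1%) lie above it. Slx4, Dna2 and Msh6 were each highest in the young WT mouse of batch 2, at 30.9, 45.8 and 129 TPM. In the other mice they lay at 7.20 to 13.3, 10.3 to 27.1 and 29.2 to 77.2 TPM. These lists and those of the next paragraph were not counted with that mouse left out. The lists were chosen with earlier results of these data known. Between KO and WT, Faap100, Atrip, Smug1 and Ercc5 of these lists were lower. Tipin, which stabilises replication forks, was higher (log2 change 0.51, SE 0.12, adjusted p = 0.0276). The share called lower in KO was 0% to 5.56% in each of these lists. Over all genes 9.98% were called in either direction, and 14.6% of the protein-coding genes above 5 TPM were called lower.

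Genes of DNA replication, of mitosis and of the p53 response moved as follows. Of 32 S phase genes 14 (43.8%) were lower in old mice and 0 higher (median -0.40). Over all genes 9.61% were called lower, and of the protein-coding genes above 5 TPM 22.8%. Mcm2, part of the replicative helicase, was at -0.72 (adjusted p = 0.0173). Between KO and WT 6 of the 32 were higher and 0 lower. Over all genes 816 of 25543 were called higher in KO, and 9.98% were called in either direction. Of 20 G2 and mitosis genes 2 (10%) were lower in old mice and 0 higher (median -0.31), and 2 were higher and 0 lower in KO. Of the 8 members listed as replication-linked genes, 3 (37.5%) were lower in old mice (median -0.56) and 0 were called between KO and WT. Of 20 genes of the p53 response, Trp53 itself and p53 targets, 2 were higher and 5 (25%) lower in old mice. In KO 1 was higher and 9 (45%) lower, against 14.6% of the protein-coding genes above 5 TPM called lower. Cdkn1a, the p53 target that blocks cell-cycle kinases, was higher in old mice (log2 change 1.32, SE 0.22, adjusted p = 0.0185) and in KO (0.91, SE 0.22, adjusted p = 0.0325). It was at 10.4 to 21.6 TPM in the 4 young mice, 40.6 and 16.9 TPM in old WT, and 54.9 and 68.7 TPM in old KO. More p53 targets went the other way. Plk2 (log2 change -2.23, adjusted p = 0.00887) and Perp (-1.84, adjusted p = 0.00419) were lower in KO. Sesn2 (-0.85, adjusted p = 0.0219) and Sesn1 (-0.71, adjusted p = 0.0249) were lower in old mice. Pmaip1 was higher in old mice (1.85, adjusted p = 0.0261), at 0.17 to 1.90 TPM.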

How the data were processed

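RNA with polyA tails was amplified with the SMART-Seq v4 kit from LSK cells of 8 mice, per the labels' protocols. The authors' deposited tables give estimated counts and TPM per transcript, and the submitters' processing notes name kallisto, DESeq2 and mm10. Transcripts were matched to GENCODE vM21 and summed per gene, and transcripts without a match held at most 0.47% of a library's counts. Estimated counts were rounded and tested with edgeR 4.0.16 (R 4.3.3): filterByExpr (minimum count 10, minimum total 15), TMM scaling, the quasi-likelihood F test, and Benjamini-Hochberg adjustment over 25543 genes at 0.05. The 2 overall comparisons used genotype, age and batch; the 5 others used the 4 groups and batch. TPM gave levels and the limma 3.58.1 alternative; DESeq2 1.42.0 was another. The fits were run on simulated counts with planted changes larger than those of the members and without batch, litter or length effects. That run cannot speak for calls of the members' size. With 2 mice per group, the number of mice limits precision more than depth.

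Genes given in full were those past the threshold in any of 7 comparisons, with the 3 highest and 3 lowest by TPM; from other lists, up to 2 highest and 2 lowest called folds. Members and lists were chosen with earlier results of these data known. The length correction was recentred after counts over all genes had been seen; both forms are given. The labels pair littermates. Deviations of littermates from their group means correlated at r = 0.0706 (old) and 0.0985 (young) across 25543 genes, which are not independent replicates. Littermates also shared a batch, so r holds litter and batch together. Replicates differed beyond counting noise in every group (chi-square per degree of freedom 69.5 to 201). Whether counting used strand is not given in the sources used here, so reads of genes that overlap on opposite strands cannot be told apart.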

Additional observations from a re-analysis of the deposited data

How the results depend on the processing

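The count of members lower in old mice (10 of 39 as reported) was 16 with no filter on low counts, 6 in batch 2 alone, 3 with protein-coding transcripts alone, and 0 without batch as a covariate, in batch 1 alone, without litter 1, and by limma at either pseudocount (0.5 or 0.1 TPM). It was 0 under the length correction without centring, an alternative kept after seeing the data, and 14 under the centred form. Leaving out 1 mouse gave 0 to 17. Over all genes the calls lower in old mice were 3642 of 42298 with no filter, 7 of 25977 without litter 1, and 7 and 11 of 25543 by limma at the 2 pseudocounts. For KO against WT (0 as reported), the count was 3 with no filter, 4 with the centred and 1 (higher in KO) with the uncentred length correction, 4 in batch 2 alone, 3 and 3 by limma, 8 by DESeq2, and 0 to 6 leaving out 1 mouse. Over all genes the calls lower in KO were 2591 of 42298 with no filter, 1896 of 25543 with the centred correction and 3469 of 25311 in batch 2 alone. They were 1921 and 1954 of 25543 by limma, and 3379 (13.2%) by DESeq2. Leaving out 1 mouse they ran from 68 of 28529 to 3147 of 27712. The uncentred correction called 695 of 25543 genes higher. With litter as a replicate block the count of members stayed at 0, as it did in old mice, in young mice and for the interaction. Over all genes the fit with litter called 1162 of 25543, against 2548 as reported. In old mice it called 12 against 166, and in young mice 3 against 16. A count already at 0 cannot fall with these, so it does not show whether pairing mattered. For KO against WT in old mice (0 as reported) the count was 1 with no filter, 3 with the centred length correction, 4 by DESeq2, and 0 to 6 leaving out 1 mouse; in young mice it was 0 to 4. For age in WT mice it was 1 with no filter and 0 to 8 leaving out 1 mouse. For age in KO mice it was 5 with no filter, 3 with the centred length correction, 10 by DESeq2, and 0 to 13 leaving out 1 mouse. The interaction count was 0 in each alternative run. Over all genes the calls lower in KO in old mice were 1611 of 42298 with no filter, 1067 of 25543 with the centred correction and 2115 of 25543 by DESeq2. For age in KO mice they were 2023 of 42298, 747 of 25543 and 2265 of 25543 in that order. For age in WT mice they were 461 of 42298 with no filter. The median log2 change of the members turned from -0.20 to 0.16 for KO against WT under the uncentred length correction, and moved from -0.34 to -0.14 for age. The KO median was -0.06 to -0.26 leaving out 1 mouse, -0.07 without litter 1 and -0.09 with protein-coding transcripts alone. The age median was -0.23 to -0.44 leaving out 1 mouse, -0.17 with protein-coding transcripts alone, and -0.19 and -0.21 by limma. The cause of these shifts was not tested.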
